A study of Homo sapiens with 6 samples.

Results

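YAP/TAZ target genes are the transcriptional output of the Hippo pathway, and 10 of them were looked for by symbol on arrays of A549 cells, an established human lung cancer line. The platform annotation named rows for 6 of the 10 genes, ANKRD1, CCN2, CRIM1, AJUBA, AMOTL2 and TEAD1, on 7 rows among the 16098 named rows of 14884 genes. CCN1, LATS2, PTPN14 and NT5E had no named row and were not analysed here. The genes were selected on their place in the pathway with earlier fold changes of these arrays in view, in which ANKRD1, CCN2, AJUBA and CRIM1 were lower with MYEOV siRNA 2 than with the control. Values that involve MYEOV siRNA 2 are therefore given for these genes as a description.

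RNA was taken 48 hours after A549 cells had been transfected, by lipid reagent, with a control siRNA, MYEOV siRNA 1 or MYEOV siRNA 2. Each of the 3 groups had 2 arrays. All groups went through transfection, and cells left untransfected are not part of the design. Values are log2 RMA signals from Affymetrix whole-transcript arrays, on which a difference of 1 is a doubling, and levels of different genes cannot be compared on this scale. Nothing in the labels ties the replicates to separate cultures, so a p-value here reflects only how far these arrays spread, and that spread may be technical.

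In the Hippo pathway, the kinases STK3 and STK4 with their scaffold SAV1 activate LATS1 and LATS2, which phosphorylate the coactivators YAP and TAZ and keep them out of the nucleus. Where these kinases are quiet, YAP and TAZ enter the nucleus, bind the TEAD factors on DNA and drive genes of growth, adhesion and matrix contact. ANKRD1, CCN1 and CCN2 are the readouts most used for this activity. Several targets, among them LATS2, AMOTL2 and PTPN14, act back on the pathway as inhibitors. In epithelial and cancer cells the pathway is known for its response to cell density and to the stiffness of the surroundings.

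TEAD factors read a short DNA core, GGAATG. Promoter windows of 300 bases, from 250 before to 50 after a transcription start, were read from RefSeq (GRCh38.p14) for 7 of the 10 genes, 4 of which also had an array row. The core was searched on both strands, together with the CArG box of SRF and the AP-1 pattern TGANTCA. Any middle base counted for AP-1, and no such match shares a base with a TEAD core in these windows. Of the 9 windows, 6 held a TEAD core, 1 matched the AP-1 pattern and 0 held a CArG box. Of all 35116 windows of this length, 14.0%, 7.71% and 1.29% did. A match describes these letters only and is not a measured site.

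The 4 windows with a TEAD core that belong to genes with an array row are shown, since they hold the letters that TEAD factors are known to bind. Each is written 5′ to 3′ on the gene's strand. Capitals mark the TEAD core (CATTCC where it lies on the other strand) and, in ANKRD1, also the match to the AP-1 pattern.
ANKRD1, chr10:90921038-90921337, minus strand: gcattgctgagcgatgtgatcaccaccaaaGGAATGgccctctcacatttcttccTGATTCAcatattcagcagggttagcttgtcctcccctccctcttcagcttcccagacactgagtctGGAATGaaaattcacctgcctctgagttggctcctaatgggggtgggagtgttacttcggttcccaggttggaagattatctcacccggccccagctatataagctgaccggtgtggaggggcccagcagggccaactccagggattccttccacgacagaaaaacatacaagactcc
CCN2, chr6:131951323-131951622, minus strand: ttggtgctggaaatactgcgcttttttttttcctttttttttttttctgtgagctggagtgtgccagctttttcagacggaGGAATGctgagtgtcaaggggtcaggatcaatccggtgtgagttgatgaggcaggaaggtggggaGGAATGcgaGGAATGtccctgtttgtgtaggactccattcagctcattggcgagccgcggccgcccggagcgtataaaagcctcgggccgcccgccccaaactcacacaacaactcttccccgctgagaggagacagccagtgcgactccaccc
AJUBA, chr14:22976793-22977092, minus strand: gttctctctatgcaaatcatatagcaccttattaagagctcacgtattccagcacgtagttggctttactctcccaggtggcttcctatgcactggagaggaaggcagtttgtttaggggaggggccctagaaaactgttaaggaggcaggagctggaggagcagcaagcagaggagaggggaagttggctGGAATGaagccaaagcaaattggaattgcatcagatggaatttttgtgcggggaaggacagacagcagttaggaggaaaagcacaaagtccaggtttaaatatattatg
AMOTL2, chr3:134374398-134374697, minus strand: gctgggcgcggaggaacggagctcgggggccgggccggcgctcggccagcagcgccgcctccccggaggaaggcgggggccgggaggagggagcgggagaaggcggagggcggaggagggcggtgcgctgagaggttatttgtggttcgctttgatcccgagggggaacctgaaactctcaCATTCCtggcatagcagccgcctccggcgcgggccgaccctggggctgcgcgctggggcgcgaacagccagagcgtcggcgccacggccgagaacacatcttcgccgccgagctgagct

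CCN2 had the most TEAD cores, 3, which begin 169, 104 and 95 bases before its start site. At least 3 cores were found in 0.128% of all windows. ANKRD1 had 2, beginning 220 and 128 bases before the start, a number that 1.37% of windows reached or passed. Its match to the AP-1 pattern, TGATTCA with T as the middle base, begins 195 bases before the start. AJUBA and AMOTL2 each have a second window, at a start further upstream on the gene's strand, and these held none of the 3 motifs. In their first windows, at the downstream start, the single core begins 59 bases before it in AJUBA and 69 in AMOTL2. Which start the array rows measure was not tested.

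**Figure D1:**
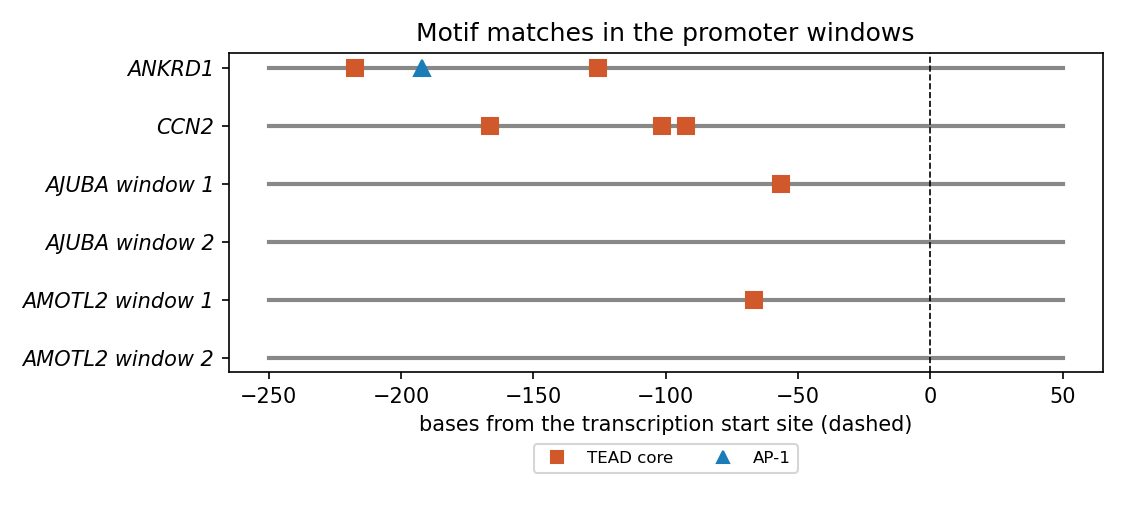
Positions of motif matches (squares, TEAD core on either strand; triangle, AP-1) in the 6 promoter windows of genes with an array row, in bases from the transcription start site. CCN2 has 3 TEAD cores and ANKRD1 has 2 and a match to the AP-1 pattern TGANTCA, all before the start.

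ANKRD1 encodes a nuclear ankyrin-repeat protein first known from stressed heart muscle and is a direct target of YAP and TEAD. Its log2 signal was 6.52 and 6.39 in the control group, 6.63 and 6.56 under siRNA 1, and 4.84 and 5.09 with siRNA 2. Both siRNA 2 arrays lay more than 1 log2 unit below the other 4, and the siRNA 1 arrays lay just above the control arrays. With siRNA 2 the signal was 64.5% lower than in the control, a log2 difference of -1.50 ± 0.10 (SE, n = 2 arrays per group). Of 7442 genes tested, only 7 had a more negative difference in this comparison. The fall was in view when ANKRD1 was chosen, so nothing is read from its rank. Its siRNA 2 arrays lay below 5.45, the mean over all arrays that a gene needed to be tested. ANKRD1 reached that mean through the control and siRNA 1 arrays.

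CCN2, formerly CTGF, is a secreted matricellular protein that binds integrins and promotes matrix production. The log2 signal of CCN2 was 7.79 and 8.04 in the control group, 7.57 and 7.88 under siRNA 1, and 7.26 and 7.23 under siRNA 2. The siRNA 2 arrays were below the other 4, while the siRNA 1 and control arrays overlapped. With siRNA 2 it was 37.0% lower than in the control, by -0.67 ± 0.12 on the log2 scale. A second CCN2 row was dim, at 3.06 and 2.70 in the control group, 3.06 and 2.71 under siRNA 1 and 2.65 and 2.25 with siRNA 2, and lay below the filter for testing. On both rows the siRNA 2 arrays were the lowest, on the dim row by less than its replicate arrays differed.

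CRIM1 is a membrane-bound protein with cysteine-rich repeats that binds bone morphogenetic proteins. CRIM1 gave a log2 signal of 10.47 and 10.51 in the control, 10.39 and 10.37 with siRNA 1, and 10.02 and 10.05 with siRNA 2. Its 3 groups did not overlap, and replicate arrays lay close together. The siRNA 2 mean was 26.9% below the control mean, a log2 difference of -0.45 ± 0.07.

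AJUBA is a LIM-domain protein of adhesion sites that binds and inhibits LATS kinases, and so acts as an activator of YAP. AJUBA stood at 7.79 and 7.77 in the control group, 7.71 and 7.84 under siRNA 1, and 7.23 and 7.28 with siRNA 2. The control values lay between those of siRNA 1, and both siRNA 2 arrays were lower. The difference of siRNA 2 from the control was -0.53 ± 0.07, or 30.6% less signal.

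AMOTL2, an angiomotin that holds YAP in the cytoplasm and at junctions, had a log2 signal of 7.25 and 7.06 in the control, 7.37 and 7.46 with siRNA 1, and 6.88 and 6.94 with siRNA 2. As for ANKRD1, the control arrays lay between the 2 siRNAs, with no overlap on either side. It was 0.26 ± 0.09 above the control with siRNA 1 and, at -0.24 ± 0.09, below it with siRNA 2.

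TEAD1, a DNA-binding partner of YAP and TAZ, varied least. Its signal was 9.55 on each control array, 9.38 and 9.48 under siRNA 1, and 9.40 and 9.51 with siRNA 2. All 4 MYEOV siRNA arrays lay below the control arrays, by small amounts, and the siRNA groups overlapped. Its difference from the control was -0.12 ± 0.07 with siRNA 1 and -0.10 ± 0.07 with siRNA 2.

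**Figure D2:**
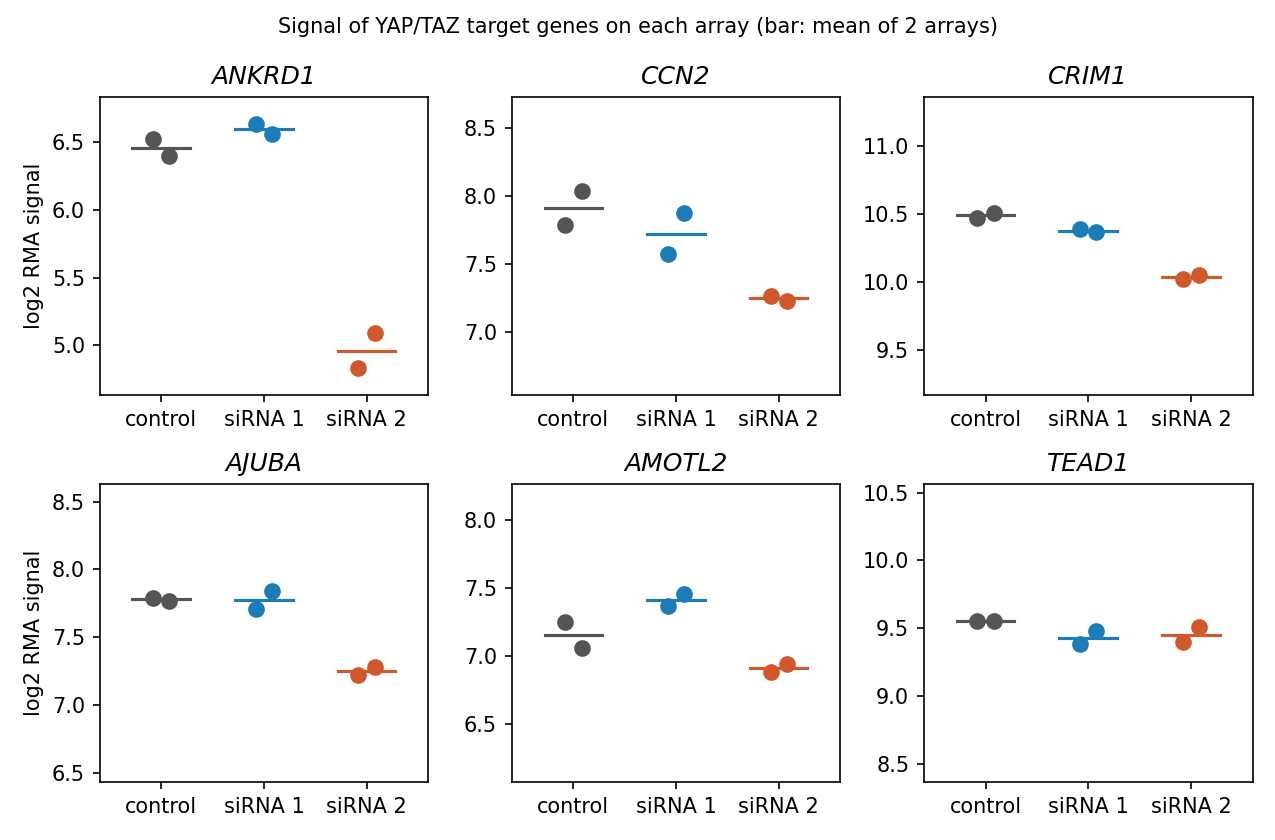
Log2 RMA signal of 6 YAP/TAZ target genes on each of the 6 arrays; points are arrays, bars are means of 2 arrays; all panels span the same log2 range. The siRNA 2 points of ANKRD1, CCN2, CRIM1, AJUBA and AMOTL2 lie below all other points of the gene, and those of TEAD1 do not. The genes were chosen with siRNA 2 results in view. Both siRNA 2 arrays were below both control arrays for 25.6% of all tested genes, and the share below all other arrays was not computed.

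The comparison of MYEOV siRNA 1 with the control asks whether YAP/TAZ targets change with that siRNA. Limma called 0 of the 6 genes lower and 0 higher, at a Benjamini-Hochberg adjusted p under 0.05 over the 7442 genes tested, against 2.38% of all tested genes called lower and 2.28% called higher. A list of 6 genes is too short to tell these counts from those shares. The differences of the 6 genes ran from -0.19 for CCN2 to 0.26 for AMOTL2, with a median of -0.06, against a median of 0.00 over all tested genes. AMOTL2 had the smallest adjusted p of the 6 genes (limma, 0.156), with a 95% confidence interval of 0.06 to 0.46. The adjusted p (limma) was 0.522 for ANKRD1, 0.465 for CCN2, 0.413 for CRIM1, 0.985 for AJUBA and 0.450 for TEAD1. The intervals allow a change of ANKRD1 from -0.10 to 0.37 and of CCN2 from -0.48 to 0.10. For CRIM1, AJUBA and TEAD1 they run from -0.27 to 0.04, -0.18 to 0.17 and -0.30 to 0.06. The difference of ANKRD1 with siRNA 2 lies outside its interval. That difference was in view when ANKRD1 was chosen, so nothing is read from this.

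With MYEOV siRNA 2 against the control, 4 of the 6 genes were past the same threshold, all lower, and 0 higher, where 4.23% of all tested genes were lower and 2.59% higher. These are ANKRD1, CCN2, CRIM1 and AJUBA, which were known to be lower when the genes were chosen, so nothing is read from the count. Both siRNA 2 arrays were below both control arrays for 6 of 6 genes, as they were for 25.6% of all tested genes. The median difference of the 6 genes was -0.49, against 0.00 over all tested genes. Only ANKRD1 passed the threshold when dim genes were not filtered out. The number of genes past it was 3 without control replicate 1, 2 without control replicate 2, 1 without siRNA 2 replicate 1 and 2 without siRNA 2 replicate 2.

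The 2 MYEOV siRNAs were then set against each other. ANKRD1 was lower with siRNA 2 than with siRNA 1 by -1.63 ± 0.10, AJUBA by -0.52 ± 0.07, AMOTL2 by -0.50 ± 0.09 and CRIM1 by -0.34 ± 0.07, and these 4 were past the threshold, against 5.37% of all tested genes called lower. In the other direction 0 of the 6 were past it, against 3.78% of tested genes. CCN2 was not, at -0.48 with an interval of -0.77 to -0.19. It passed the threshold with the filter at the 75th percentile, the trend and robust prior, array quality weights or the replicate block. TEAD1 differed by 0.02 between the siRNAs, with an interval of -0.15 to 0.20. The order of group means was control, siRNA 1, siRNA 2 for CCN2, CRIM1 and AJUBA, with siRNA 1 and control not separated beyond their spread for CCN2 and AJUBA. For ANKRD1 and AMOTL2 siRNA 1 was highest, then control, then siRNA 2. The median difference was -0.49, against 0.00 over all tested genes. This comparison uses the siRNA 2 arrays that were in view when the genes were chosen, so nothing is read from its count either. Past the threshold were 2 genes without siRNA 1 replicate 1, 1 gene without siRNA 1 replicate 2, and 2 genes without siRNA 2 replicate 1 or replicate 2, against 4 with all arrays.

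**Figure D3:**
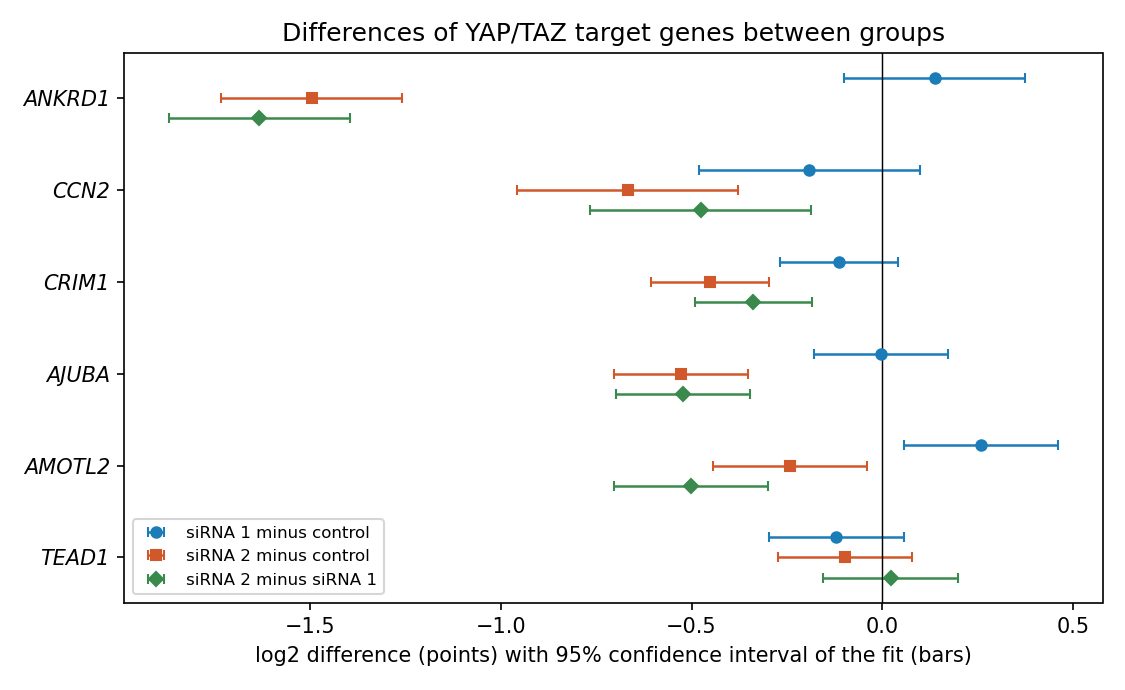
Log2 differences between groups for 6 YAP/TAZ target genes (points) with the 95% confidence interval of the limma fit (bars). ANKRD1 is at -1.50 for siRNA 2 minus control and at 0.14 for siRNA 1 minus control, while all 3 intervals of TEAD1 hold 0.

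MYEOV itself was at 6.20 and 6.50 in the control, 5.34 and 5.19 with siRNA 1, and 5.23 and 4.70 with siRNA 2. Every MYEOV siRNA array lay under the filter of 5.45, so MYEOV was tested only because of its control arrays. The siRNAs did not differ detectably in it, at -0.30 (interval -0.72 to 0.12, limma adjusted p = 0.370). It fell with each, by 1.09 with siRNA 1 and by 1.39 with siRNA 2 (limma adjusted p = 0.0215 and 0.00516). For siRNA 1 that call was lost with no filter and without either control array or either siRNA 1 array, where the difference ran from -1.23 to -0.94. Of the epithelial markers, 5 of 6 had a row, and all 5 were above the filter (KRT8, KRT18, KRT19, KRT7 and EPCAM). Their mean log2 signal was 7.99 and 7.95 in the control, 7.99 and 7.96 with siRNA 1, and 7.76 and 7.86 with siRNA 2, and limma called 0 of the 5 in any of the 3 comparisons, with a smallest adjusted p of 0.0817. With siRNA 2 against the control the 4 keratins were at -0.34 (KRT8), -0.25 (KRT19), -0.24 (KRT7) and -0.21 (KRT18), the sign seen for ANKRD1, CCN2, CRIM1 and AJUBA, while EPCAM was at 0.23. The part of these shifts in the values of the YAP/TAZ targets was not tested. Of the 7 markers of leukocytes, endothelium and fibroblasts, only PECAM1 and VWF had a row, and neither passed the filter. The 7 proliferation markers, MKI67 and TOP2A among them, averaged 9.69 and 9.87 in the control, 9.62 and 9.76 with siRNA 1 and 9.76 and 9.82 with siRNA 2. Control and siRNA 2 overlapped, and limma called 0 (smallest adjusted p = 0.210). Over all tested genes limma called 4.66% with siRNA 1, 6.83% with siRNA 2 and 9.15% between the siRNAs.

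Among further targets of YAP and TAZ, EDN1 and CCND1 were lower with siRNA 2. The lists of other genes, here and in the next paragraphs, were also chosen with earlier results of these data known. Their calls and p-values are therefore a description. Of 8 tested genes from the rest of a published YAP/TAZ signature, limma called 0 with siRNA 2, against 6.83% of all tested genes. Their median difference was -0.22, against 0.00 over all tested genes. MYOF, a membrane repair protein, was at -0.31 and DOCK5, a Rac activator, at -0.28 (limma adjusted p = 0.0589 for each). Among these genes CCDC80, a matrix protein, rose by 0.60 with siRNA 1 (limma adjusted p = 0.0412) and was lower with siRNA 2 than with siRNA 1, by -0.78 (0.00939). Of 8 other genes described as targets, limma called 2 with siRNA 2, against 6.83% of all tested genes, and 0 with siRNA 1, against 4.66%. Lists of 8 genes are too short to tell these counts from those shares. The vasoconstrictor peptide EDN1, at -0.51, and the cell cycle regulator CCND1, at -0.72, fell with siRNA 2 (limma adjusted p = 0.00569 and 0.00162). EDN1 was at 9.96 and 9.99 in the control, 10.06 and 10.08 with siRNA 1 and 9.50 and 9.44 with siRNA 2. THBS1, the matrix protein thrombospondin, was at 0.32 with siRNA 1 and -0.25 with siRNA 2 (limma adjusted p = 0.0955 and 0.151), and differed between them by -0.57 (0.00909), the order of groups seen for AMOTL2 and ANKRD1. With siRNA 1 it was called under 2 of 16 alternatives, the filter at the 75th percentile and the trend and robust prior.

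The coactivators and their partners did not move as one. WWTR1, which encodes TAZ, was 6.82 and 6.90 in the control, 6.73 and 6.79 with siRNA 1 and 6.48 and 6.39 with siRNA 2, and fell with siRNA 2 by 0.43 (limma adjusted p = 0.0175). YAP1 was at 0.27 with siRNA 1 and 0.28 with siRNA 2 (limma adjusted p = 0.0984 and 0.0713), and the siRNAs differed in it by 0.01, with an interval of -0.16 to 0.18. With its rows averaged, YAP1 was at 0.034 and 0.022 (limma adjusted p = 0.862 and 0.908). It was called under 1 of 16 alternatives with siRNA 1 and under 3 of 16 with siRNA 2. TEAD2 rose with each, by 0.53 and 0.60 (limma adjusted p = 0.00765 and 0.00284), and VGLL3, a TEAD cofactor, rose by 0.71 with siRNA 1 (0.0135) and stood at 0.41 with siRNA 2 (0.0587). TEAD4 was at -0.19 and -0.18 (0.227 and 0.214). TEAD3 was below the filter and LATS1 had no named row.

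Among the 8 tested core kinase genes, STK4 fell with siRNA 2 by 0.54 (limma adjusted p = 0.0120) and TAOK3, a kinase above STK3 and STK4, rose with siRNA 1 by 0.35 (0.0469). The TAOK3 call was lost under 9 of 16 alternatives: no filter, only the arrays of the 2 groups, array quality weights and each of the 6 arrays left out. Among 11 upstream regulators, NF2, the tumour suppressor merlin, fell with siRNA 2 by 0.67 (0.00311) and WTIP, a relative of AJUBA, fell with siRNA 1 by 0.52 (0.0158). NF2 was at 9.01 and 9.09 in the control, 9.00 and 8.98 with siRNA 1 and 8.32 and 8.44 with siRNA 2. NF2 and STK4 also differed between the siRNAs, by -0.60 and -0.64 (limma adjusted p = 0.00383 and 0.00470). Over all 5 of these lists, 41 of 69 genes were tested. Limma called 1 lower and 4 higher with siRNA 1, 5 lower and 1 higher with siRNA 2, and 10 lower and 0 higher in siRNA 2 against siRNA 1, where 4.66%, 6.83% and 9.15% of all tested genes were called in either direction. With no filter 0, 3 and 4 were called. The calls for siRNA 1 numbered 2 without control replicate 2, and 0 when control replicate 1 or either siRNA 1 array was left out. For siRNA 2 against siRNA 1 there were 4 calls without either siRNA 1 array and 6 without either siRNA 2 array. The calls of CCND1, NF2 and TEAD2 with siRNA 2 held under all 16 alternatives, and that of EDN1 under all but no filter. STK4 and WWTR1 also lost their calls with no filter. STK4 lost its call without control replicate 2 or siRNA 2 replicate 2, and WWTR1 without any 1 of the control and siRNA 2 arrays.

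**Figure D4:**
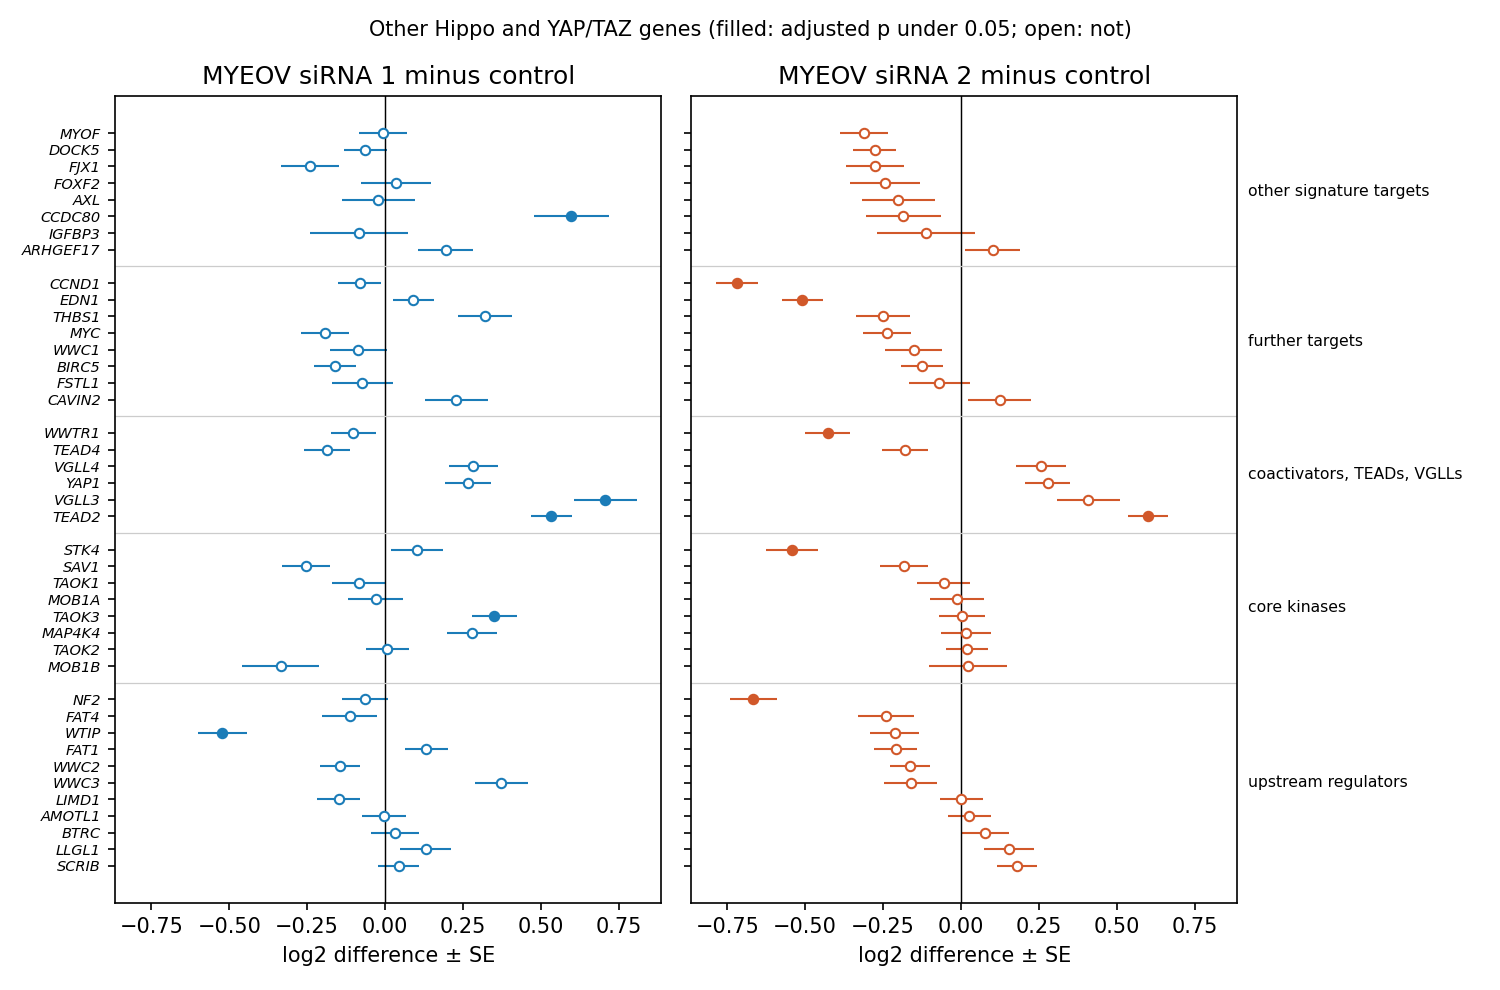
Log2 differences from control (points, with SE) of the 41 tested Hippo and YAP/TAZ genes outside the 6 described, for siRNA 1 (left) and siRNA 2 (right); filled points had a limma adjusted p under 0.05. CCND1, EDN1, WWTR1, STK4 and NF2 are filled below 0 with siRNA 2, and TEAD2 is filled above 0 with both.

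MRTF and SRF, which respond to actin, also drive CCN1 and CCN2. Of 11 tested MRTF/SRF targets limma called 0 with siRNA 2, against 6.83% of all tested genes. Their median was -0.02, and the smallest adjusted p (limma) was 0.0757, for tropomyosin TPM1 at -0.37. With siRNA 1 limma called 1 of the 11, against 4.66% of all tested genes. A list of 11 genes is too short to tell these counts from those shares. The gene called was vinculin VCL, higher by 0.37 (limma adjusted p = 0.0481). Its call was lost with no filter, with only the arrays of the 2 groups, with array quality weights and when any 1 of the 6 arrays was left out. TPM1 was lower with siRNA 2 than with siRNA 1, by -0.54 (limma adjusted p = 0.0185), a call lost with no filter, when the rows of the gene were averaged, and without siRNA 2 replicate 1 or either siRNA 1 array.

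Profiles over the 6 arrays were compared among tested protein-coding genes, without the 6 targets and symbols of the LOC, open reading frame, KIAA and FAM types. Those most like ANKRD1 were ARHGAP1, SMU1, TMEM30A, PRUNE1 and ATG14. Likeness was the root mean square difference between log2 profiles centred on their mean, which ran from 0.11 for ARHGAP1 to 0.14 for ATG14. ARHGAP1 was 9.67 and 9.70 in the control, 9.66 and 9.75 with siRNA 1 and 8.06 and 8.08 with siRNA 2. For CCN2 the nearest were RASSF3, PAK2, SHMT1, TMEM14A and MYBL2, with differences from 0.08 to 0.10. PAK2, a kinase activated by Rac and Cdc42, was 9.02 and 9.13 in the control, 8.68 and 8.82 with siRNA 1 and 8.37 and 8.28 with siRNA 2. Unlike in ANKRD1, the siRNA 1 arrays of these 5 genes had means below the control, by 0.08 to 0.32 on the log2 scale. For RASSF3 this turned without control siRNA replicate 2, to 0.05 above the control.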

How the data were processed

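Gene expression was measured on 6 Affymetrix whole-transcript arrays of A549 cells, 2 per group. The deposited values are log2 signals. The submitters' processing notes name RMA, without a version, as the authors' method; it understates changes of dim transcripts. Array medians lay between 4.08 and 4.10. Of 53617 rows, 16098 had 1 gene symbol, 0 had several and 37519 had none and are unnamed here. All 16098 identifiers matched RefSeq genes (GRCh38.p14), from which current symbols were taken.

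For each gene the row with the highest mean was used, and genes with a mean of at least 5.45, the median of named genes, were tested. Limma 3.58.1 in R 4.3.3 (lmFit, eBayes) was fitted to all 6 arrays and 3 groups, with 3 residual and 4.09 prior degrees of freedom, and p-values were Benjamini-Hochberg adjusted over 7442 genes. With 2 arrays on each side the smallest p of an exact permutation test is 0.333. The comparisons with control share the same 2 control arrays. The number of arrays limits the precision. The fit was tested on simulated data, in which 200 genes were changed in the comparison of siRNA 2 with control. Over 10 runs limma recovered 63% of changes of 0.5 log2 and 97.6% of changes of 1, and 5.36% of its calls were false.

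The genes described, the lists around them and the rules were chosen with earlier results of these data known. Genes outside the 6 were named if they are MYEOV, YAP1, WWTR1, a TEAD, LATS1 or a marker, or if they were list genes called in a comparison. The 5 nearest profiles to ANKRD1 and to CCN2 among protein-coding genes were also named. Symbols of the LOC, open reading frame, KIAA and FAM types were left out of that search. MYOF and DOCK5 were chosen after their values were seen. Alternatives were no filter or one at the 75th percentile, rows averaged or each tested, quantile normalization, median centring, only 2 groups in the fit, a replicate block, a trend and robust prior, array quality weights and each array left out.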

Additional observations from a re-analysis of the deposited data

Results flagged for a closer look

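For 4 of the 6 YAP/TAZ targets the values of siRNA 2 and siRNA 1 lay past the threshold of the limma contrast between them. Of all tested genes, 5.37% were called lower and 3.78% higher in this contrast. The 4 targets were at -1.63 for ANKRD1, -0.52 for AJUBA, -0.50 for AMOTL2 and -0.34 for CRIM1 on the log2 scale. These genes were chosen with siRNA 2 results in view, so the values are a description and not a test. AMOTL2 was not called against the control with either siRNA.

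Outside these 6 genes, the limma contrast called a difference between the siRNAs for 4 other targets, at -0.78 for CCDC80, -0.64 for CCND1, -0.60 for EDN1 and -0.57 for THBS1. In the pathway itself it did so for STK4 at -0.64, NF2 at -0.60, WWC3, a relative of the scaffold WWC1, at -0.53, TAOK3 at -0.35, the protocadherin FAT1 at -0.34 and WWTR1 at -0.33. It also did so for the SRF target TPM1, at -0.54. All of these genes were lower with siRNA 2 than with siRNA 1, the direction in which 5.37% of all tested genes were called, against 3.78% in the other. Their lists were also chosen with earlier results of these data known. Of the calls outside the 6 targets, those of EDN1, CCND1, STK4 and NF2 held under every alternative tried.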

How the results depend on the processing

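Directions of the 6 YAP/TAZ targets held under all alternatives except for 2 values near 0. With siRNA 1, AJUBA was at 0.019 with quantile normalization and between -0.070 and 0.062 with single arrays left out. Between the siRNAs, TEAD1 was at -0.0044 with quantile normalization and between -0.035 and 0.080 with single arrays left out. YAP1 between the siRNAs was at -0.012 with its rows averaged and between -0.043 and 0.068 with single arrays left out. With siRNA 1 against the control, TPM1 was at -0.053 with its rows averaged. With single arrays left out, ARHGAP1 was between -0.021 and 0.070, SMU1 between -0.011 and 0.14, PRUNE1 between -0.14 and 0.14 and RASSF3 between -0.27 and 0.048. With siRNA 2 against the control, TAOK3 was at -0.0076 with median centring and between -0.047 and 0.053 with single arrays left out. Between the siRNAs, TEAD4 was at -0.0011 with median centring and between -0.025 and 0.041 with single arrays left out. With no filter, 1 target was lower with siRNA 2 than with the control and 1 than with siRNA 1, and 0, 3 and 4 other Hippo genes were called for siRNA 1, siRNA 2 and the difference. The trend and robust prior called 10 for siRNA 2. Leaving out single arrays gave 1 to 4 lower targets in both comparisons of siRNA 2, and 0 to 4, 4 to 6 and 4 to 12 other Hippo genes. The number of genes tested differs without the filter, and the number of arrays when 1 is left out; the cause of the other changes was not tested. Same-numbered arrays deviated together, with correlations across 7442 genes of 0.205 to 0.265, but with 2 arrays a group this does not show pairing. With the replicate block, 4 and 5 targets were lower with siRNA 2 than with control and siRNA 1, and 5, 8 and 13 other Hippo genes were called.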
